A study of Mus musculus with 3 samples.

Results

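H3K36me3 was measured by chromatin immunoprecipitation and sequencing (ChIP-seq) over 8 mouse genes that encode the receptors for retinoids (Rara, Rarg, Rxra, Rxrb), vitamin D (Vdr), glucocorticoids (Nr3c1) and lipids (Ppard, Pparg). Peaks were taken where their midpoint lay in the gene body of the GENCODE M21 annotation, which gave 106 of the 120910 mm10 peaks, in 7 of the 8 genes. The cells were regulatory T (Treg) cells, sorted as CD3+CD4+Foxp3-YFP+ from spleen or large intestine (LI) of untreated adult C57BL/6 mice whose Foxp3 locus drives Cre and YFP, so both groups carried this allele. Cells of several male and female mice were pooled into 1 library per tissue, with no replicate of either, so every interval here is a counting interval and no difference carries a replicate check. The libraries held about 29.6 M (spleen) and 38.1 M (LI) reads, inferred from the smallest step between values with the bin taken as 20 bp.

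Nuclear receptors are transcription factors that bind small lipid-soluble ligands. Retinoic acid, vitamin D and fatty acid receptors bind DNA as partners of the retinoid X receptors, while the glucocorticoid receptor binds mainly as a homodimer after leaving its cytoplasmic chaperones. Setd2 deposits H3K36me3 behind elongating RNA polymerase II, so the mark typically covers transcribed gene bodies, increasing toward the 3′ end, and leaves the promoter bare.

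The sequences below show what lay outside and inside the marked stretches of retinoid receptor genes, with each CG dinucleotide, the main target of DNA methylation, in capitals. The first pair are the 250 bases before RefSeq starts inside the annotated bodies of Rara (chr11:98937468-98937717, + strand) and Rxra (chr2:27709042-27709291, + strand), from the GRCm38 promoter table. No peak covered either start, which was a condition of their choice and so is not a result. Of such starts of each gene, these lay closest before the next peak, which began 124 bp and 28122 bp downstream. Peaks did lie over another Rara start and over an Rxrb start.
Rara before the start: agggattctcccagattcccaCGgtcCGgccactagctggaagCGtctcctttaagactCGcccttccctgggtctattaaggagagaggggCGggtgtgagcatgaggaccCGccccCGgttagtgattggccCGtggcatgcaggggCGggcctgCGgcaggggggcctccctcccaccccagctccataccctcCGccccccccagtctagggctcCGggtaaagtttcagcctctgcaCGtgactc
Rxra before the start: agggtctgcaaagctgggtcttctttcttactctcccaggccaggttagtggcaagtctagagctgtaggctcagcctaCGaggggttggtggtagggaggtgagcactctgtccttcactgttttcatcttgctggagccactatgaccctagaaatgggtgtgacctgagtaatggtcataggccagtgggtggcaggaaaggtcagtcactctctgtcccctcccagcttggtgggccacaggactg
The second pair are the central 300 bases of the peak of at least 1 kb with the largest spleen to LI difference in Rxra (chr2:27741044-27741343, + strand, over an exon) and in Rarg (chr15:102251393-102251692, − strand, in an intron), read from GRCm38.
Rxra peak centre: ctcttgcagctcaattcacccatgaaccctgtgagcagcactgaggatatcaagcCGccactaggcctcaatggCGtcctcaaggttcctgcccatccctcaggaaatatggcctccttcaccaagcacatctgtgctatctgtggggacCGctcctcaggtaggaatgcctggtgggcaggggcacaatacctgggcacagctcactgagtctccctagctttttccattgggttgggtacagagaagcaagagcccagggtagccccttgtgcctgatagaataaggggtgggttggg
Rarg peak centre: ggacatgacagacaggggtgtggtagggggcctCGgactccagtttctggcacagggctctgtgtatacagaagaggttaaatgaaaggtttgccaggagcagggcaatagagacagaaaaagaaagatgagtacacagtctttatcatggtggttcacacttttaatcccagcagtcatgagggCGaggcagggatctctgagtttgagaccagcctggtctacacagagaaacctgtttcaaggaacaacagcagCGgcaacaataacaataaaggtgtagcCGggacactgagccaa
The Rara stretch held 13 CG and the Rxra stretch 1, against a median of 6 before 32851 RefSeq starts. The peak centres held 3 and 4, against a median of 3 over 85909 peak centres.

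H3K36me3 summed over each gene was higher in LI Treg cells in 5 receptor genes and higher in splenic Treg cells in 1, Rarg. Values are mean RPKM per peak (reads scaled to peak length and library depth), summed per gene as deposited; each log2 ratio of LI over spleen is taken after scaling both libraries to the same total over all peaks. Of the 8 genes, 6 reached 20 RPKM over both libraries, and all 6 had a 95% counting interval of the log2 ratio that left out 0. After correction for the GC content of the peaks, the interval lay above 0 in 2 receptor genes in place of 5, Nr3c1 and Rxra. With each gene's strongest peak alone it also lay above 0 in 2, but these were Rara and Rxrb. No receptor gene kept an interval above 0 under both settings, whereas that of Rarg stayed below 0 under both. Across all 10886 genes with that much signal the interval lay above 0 in 17.9% and below 0 in 15.2%, and the median log2 ratio was 0.0049. No receptor gene passed 2-fold in either direction, which 3.42% of genes did toward LI and 2.04% toward spleen. Of the 106 peaks, 81 were higher in LI, against 48.9% of all peaks, and 25 in spleen. The interval lay above 0 in 33 of them and below 0 in 5, against 7.11% and 7.0% of all peaks. By their midpoint 5 lay in 3′ UTRs, 8 elsewhere in exons, and 14 outside exons but close to (up to 1 kb from) an annotated start. The remaining 79 lay in introns farther from a start. Peaks of 1 gene share their library and are not replicates.

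**Figure D1:**
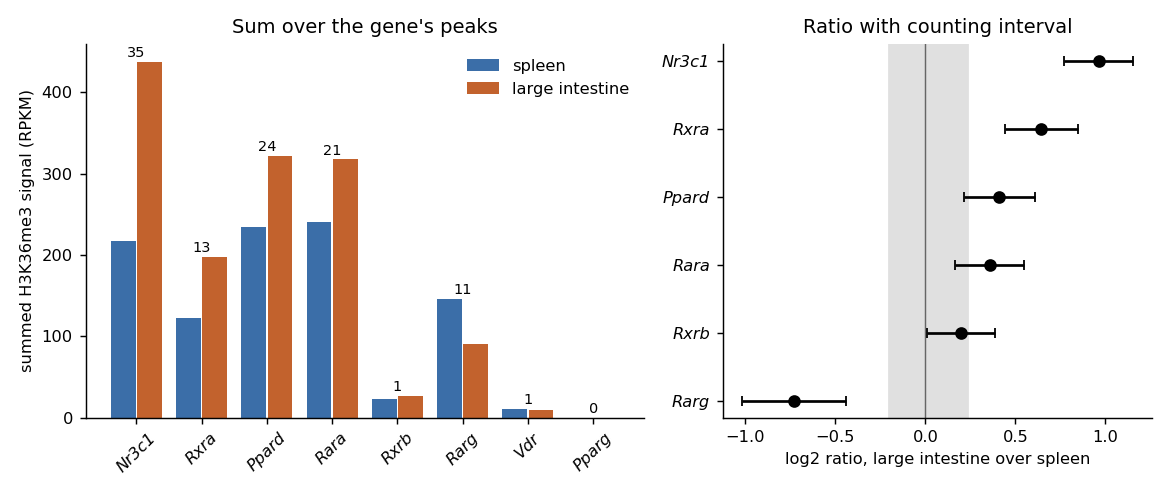
Left, summed H3K36me3 signal (RPKM) per receptor gene in spleen and LI, with the number of peaks above the bars; right, log2 ratio of LI over spleen with its 95% counting interval, the grey band marking the quartiles of all tested genes (-0.20 to 0.24). Nr3c1 is highest at 0.96 and Rarg lowest at -0.73; Vdr was under the 20 RPKM filter and Pparg had no peak.

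Rara (ENSMUSG00000037992.16, chr11:98927818-98974942, + strand), retinoic acid receptor alpha, had 21 peaks that summed to 240.2 RPKM in spleen and 317.5 in LI. LI was higher by 0.36 on the log2 scale (0.17 to 0.55), or 0.083 (-0.12 to 0.28) with GC correction, and 15 of the 21 peaks were higher there. The strongest, a 5050 bp peak at the 3′ end (chr11:98969541-98974590), held 39.4 RPKM in spleen and 52.7 in LI. In both tissues the mark was strongest at the end: of 5 equal parts of the gene body, the first had no peak and the last had a mean of 33.1 RPKM in spleen and 41.2 in LI. Its other named peak of at least 1 kb (chr11:98949074-98953273), near the middle, had 17.7 and 27.1 RPKM, a ratio of 0.55 (0.32 to 0.78). Averaged over the gene body, Rara ranked above 74.8% of coding genes with a peak in spleen and 82.1% in LI. One of its peaks is shared with the snRNA gene Gm22061.

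Rarg (ENSMUSG00000001288.15, chr15:102234938-102257517, − strand), retinoic acid receptor gamma, went the opposite way. Its 11 peaks summed to 146.3 RPKM in spleen and 90.9 in LI, a log2 ratio of -0.73 (-1.02 to -0.44), or 1.66-fold higher in spleen. All 4 of its peaks of at least 1 kb and 10 of its 11 peaks were higher in spleen. The strongest (chr15:102237608-102240345, 2738 bp) had 23.5 RPKM in spleen and 13.9 in LI. The intronic peak whose centre is printed above (chr15:102251031-102252054) had 12.3 and 5.89 RPKM, a log2 ratio of -1.05 (-1.75 to -0.34). Both ends of the gene showed the difference, while 1 peak in the latter part was slightly higher in LI and the middle had no peak. The part nearer the start, divided at the middle of the body, had a ratio of -0.88 (-1.36 to -0.39) and the part nearer the end -0.61 (-0.95 to -0.27). Itgb7, the coding gene 2.99 kb away, encodes an integrin subunit used in gut homing and had nearly equal signal, with 74.0 RPKM in spleen, 73.1 in LI and a log2 ratio of -0.06 (-0.18 to 0.05).

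Rxra (ENSMUSG00000015846.14, chr2:27676440-27762957, + strand), retinoid X receptor alpha, had 13 peaks, 122.1 RPKM in spleen and 197.2 in LI, a log2 ratio of 0.64 (0.44 to 0.85). All 6 peaks of at least 1 kb were higher in LI. No peak lay in the first 61.0 kb of its 86.5 kb. Of 5 equal parts of its body, the next to last had a mean of 2.28 RPKM in spleen and 4.16 in LI, and the last 8.96 and 13.8. The exon peak printed above (chr2:27740357-27742030) had 9.24 RPKM in spleen and 17.0 in LI, a log2 ratio of 0.80 (0.32 to 1.27). Rxrb (ENSMUSG00000039656.17, chr17:34031812-34038399, + strand), retinoid X receptor beta, had a single peak by midpoint, of 5354 bp over 76.0% of its body. The peak ran past the annotated end of the gene to chr17:34038748, so its value also holds sequence outside Rxrb. Another peak overlapped the start of the body but had its midpoint outside it. The 5354 bp peak held 22.5 RPKM in spleen and 26.8 in LI. Its log2 ratio was 0.20, with an interval (0.010 to 0.39) that only just left out 0, and turned to -0.050 (-0.25 to 0.15) with GC correction. Per length Rxrb was the most heavily marked receptor, with a body mean of 17.2 RPKM in spleen and 20.4 in LI, against 2.25 and 3.59 for Rxra.

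Nr3c1 (ENSMUSG00000024431.15, chr18:39410545-39519421, − strand), the glucocorticoid receptor, had the highest ratio of LI over spleen of the receptors in unweighted sums. Its 35 peaks summed to 217.4 RPKM in spleen and 437.7 in LI, a log2 ratio of 0.96 (0.77 to 1.15), above that of 96.2% of genes. LI was higher in 34 of the 35 peaks, of which 15 had an interval above 0. The difference was uneven along the gene. Nearer the start, 24 peaks summed to 119.2 RPKM in spleen and 302.6 in LI, a log2 ratio of 1.29 (1.02 to 1.57), with LI higher in all 24. Nearer the end, 11 peaks summed to 98.2 and 135.1, a ratio of 0.41 (0.15 to 0.67). The parts differed by 0.88 (0.51 to 1.26). In spleen the median peak was 4.46 RPKM nearer the start and 9.22 nearer the end, whereas in LI the medians were 12.2 and 11.4. The peak with the most signal over both libraries together (chr18:39420573-39424626, at the end), the strongest in spleen but not in LI, differed little, with 14.2 RPKM in spleen and 17.0 in LI and a ratio of 0.21 (-0.060 to 0.48). An intronic peak near the start (chr18:39509992-39511346) had 4.07 and 14.8 RPKM, a ratio of 1.70 (1.00 to 2.40). The peaks nearer the start were short (median 362.5 bp), and a peak enters the table when called in either library. With peaks of at least 1 kb alone, the gene's ratio was 0.55, no longer above that of Rxra (0.60), and the parts differed by 0.65 (0.18 to 1.13). That difference rests on only 2 peaks nearer the start and 3 nearer the end. Nearer the start these were the peak at 1.70 and one at 0.47 (-0.030 to 0.98).

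**Figure D2:**
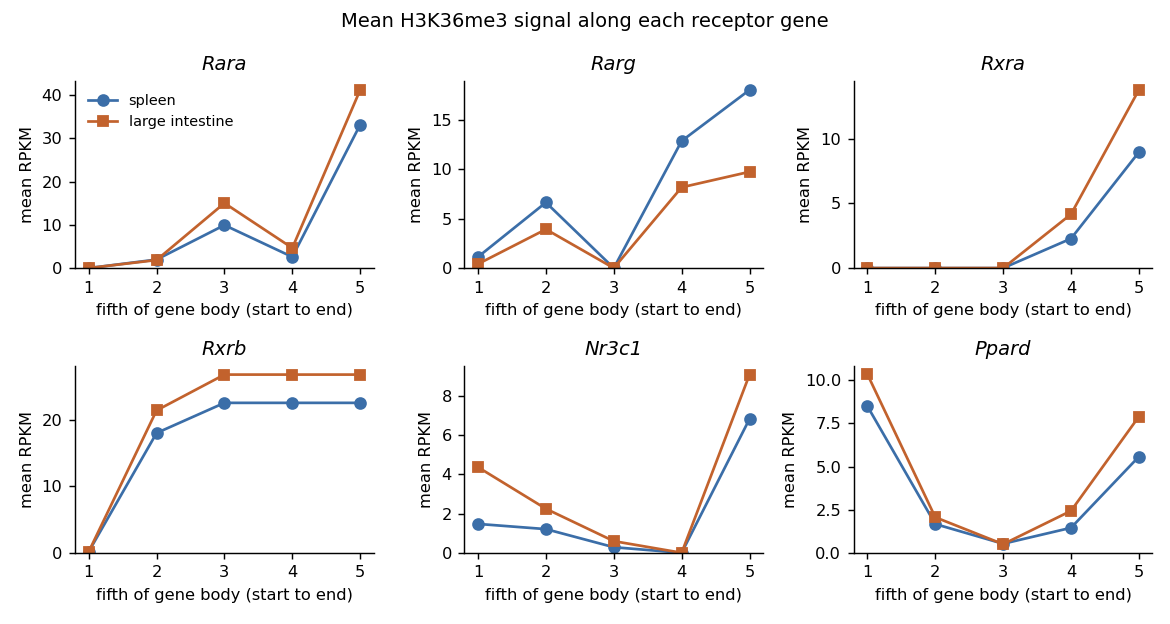
Mean H3K36me3 signal (RPKM; bases outside peaks count as 0) in 5 equal parts of the gene body, from start to end, in spleen and LI. In Nr3c1 the first part has 1.47 RPKM in spleen and 4.36 in LI, against 6.82 and 9.08 in the last; scales differ between panels.

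**Figure D3:**
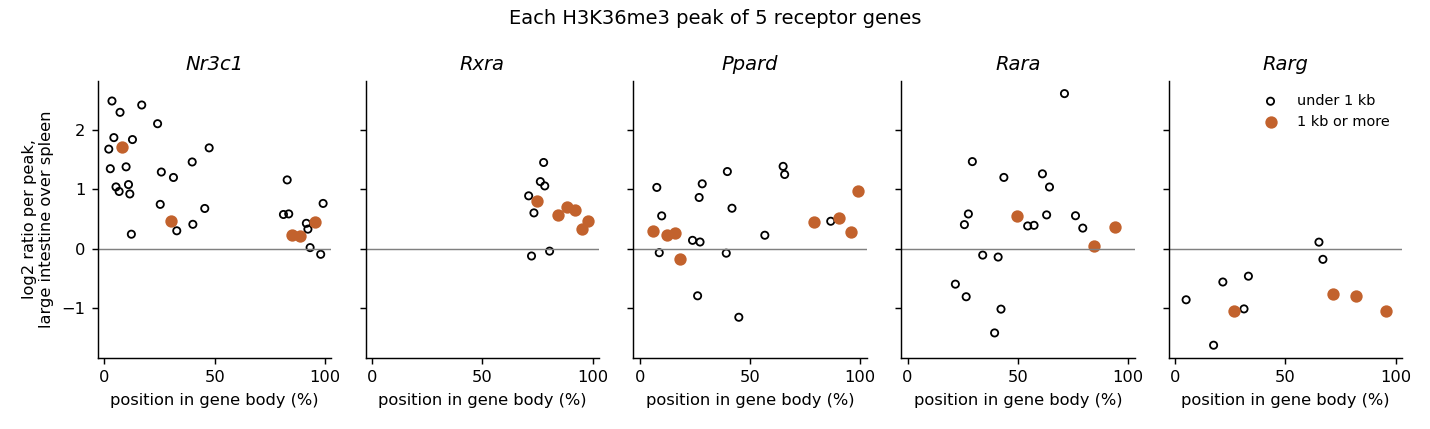
Each peak of the 5 receptor genes with several peaks, by the position of its midpoint in the gene body (percent, start to end) and its log2 ratio of LI over spleen; filled points are peaks of at least 1 kb. Nr3c1 peaks lie highest near the start, and 10 of 11 Rarg peaks lie below 0.

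Ppard (ENSMUSG00000002250.16, chr17:28232700-28301474, + strand), a fatty acid receptor, had 24 peaks with 234.2 RPKM in spleen and 321.4 in LI, a log2 ratio of 0.41 (0.22 to 0.61), or 0.15 (-0.050 to 0.35) with GC correction. LI was higher in 19 of them and in 7 of the 8 peaks of at least 1 kb. Its mark had maxima at both ends in both tissues, and of 5 equal parts of the body the middle had the least, 0.524 RPKM in spleen and 0.498 in LI, against 5.57 and 7.90 in the last. Nearer the start the ratio was 0.28 (0.030 to 0.53) and nearer the end 0.65 (0.36 to 0.95), a difference of -0.37 whose interval (-0.76 to 0.019) included 0. That interval left out 0 with peaks weighted by length (-0.28, -0.55 to -0.0093) and with peaks of at least 1 kb (-0.38, -0.71 to -0.058). With GC correction it included 0 (-0.26, -0.66 to 0.15). The peak over the 3′ UTR (chr17:28300130-28301170) had the largest ratio of its long peaks, 0.97 (0.38 to 1.55), from 9.53 RPKM in spleen and 19.7 in LI.

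Vdr (ENSMUSG00000022479.15, chr15:97854425-97910630, − strand), the vitamin D receptor, had 1 intronic peak of the minimum length of 200 bp (chr15:97884859-97885058). It held 10.5 RPKM in spleen and 9.49 in LI, under the filter, and a difference was not detectable at this depth (interval -1.66 to 1.29). Pparg (ENSMUSG00000000440.12, chr6:115360951-115490399, + strand), which governs fat cell and tissue Treg programmes, had no peak in its 129.5 kb. Peak calls do not show that the mark was absent from either gene.

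In order of the log2 ratio of unweighted sums the genes were Nr3c1, Rxra, Ppard, Rara, Rxrb and Rarg. Nr3c1 exceeded Rxra by 0.32 (0.039 to 0.60), but this order depended on the summing: it was 0.69 against 0.63 with peaks weighted by length, and Rxra was the higher with peaks of at least 1 kb (0.55 against 0.60) and with the strongest peak (0.21 against 0.34). Rxrb exceeded Rarg by 0.93 (0.58 to 1.27). The counting intervals of the differences between Rxra and Ppard (-0.048 to 0.52), Ppard and Rara (-0.22 to 0.33), and Rara and Rxrb (-0.11 to 0.43) included 0. GC content moved with the ratio over all peaks. By the median over their peaks, Rara, Rxra, Rxrb and Ppard had 54.9 to 56.3% GC, Rarg 51.1% and Nr3c1 43.6%. The median over all peaks was 46.5%. With GC correction, under which Rara, Rxrb and Ppard had intervals that included 0, Nr3c1 (1.07, 0.88 to 1.25), Rxra (0.37, 0.16 to 0.58) and Rarg (-0.89) kept theirs to 1 side. In bulk samples, fewer cells with the mark and less of it per cell cannot be told apart.

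The other 40 nuclear receptors listed had 15 tested genes with a median log2 ratio of 0.51, of which 8 had an interval above 0 and 1 below. Over all tested genes the interval lay above 0 in 17.9% and below 0 in 15.2%, the background for this list and those that follow. Nr1d1, a circadian repressor whose 3′ end overlaps Thra, had 1.43, and Nr2c1, an orphan receptor, -0.41 (-0.70 to -0.12). The 21 tested coactivators and corepressors centred near 0, with a median of -0.052, 2 intervals above 0 and 3 below. Nrip1, a corepressor of ligand-bound receptors, was the highest of them with 399.4 RPKM in spleen and 745.7 in LI, a ratio of 0.85 (0.71 to 1.00), and Ncoa7, a coactivator, was the lowest at -0.38.

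Of 20 retinoid enzymes, carriers and targets, 8 were tested (median 0.10), with 1 interval above 0 and 2 below. Ccr9, the retinoic acid-induced gut homing receptor, had 155.9 RPKM in spleen and 310.3 in LI, a ratio of 0.94 (0.69 to 1.20), whereas Cyp26c1, a retinoic acid hydroxylase, had -0.76 and Itga4, the integrin partner of Itgb7, -0.22. Of 13 vitamin D enzymes and targets 2 had a peak and only the sterol reductase Dhcr7 was tested, at 0.36 (0.076 to 0.64). The 19 tested glucocorticoid receptor chaperones and targets had a median of -0.0066, with 5 intervals above 0 and 5 below. Ddit4 (0.56) and the phosphatase Dusp1 (0.47) were highest, and the chaperone Hsp90aa1 and the chemokine receptor Cxcr4 lowest (both -0.51). The 14 tested PPAR partners and lipid targets had a median of 0.12, with 5 intervals above 0 and 2 below. Il1rl1, encoding the IL-33 receptor ST2, had 1.27 (0.99 to 1.54), and Abca1, a cholesterol exporter, -2.04 (-2.46 to -1.62).

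**Figure D4:**
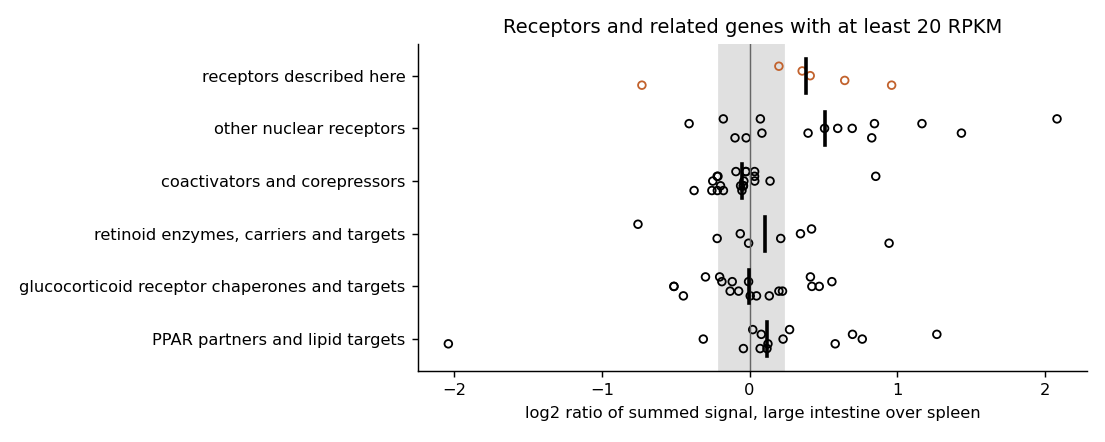
Log2 ratio of summed H3K36me3 signal, LI over spleen, for each tested gene of the receptors and of 5 related lists; bars mark medians and the grey band the quartiles of all tested genes. The median is 0.38 for the receptors described here and 0.51 for other nuclear receptors, against -0.0066 for glucocorticoid receptor chaperones and targets.

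All 12 Treg and T cell markers examined had peaks, with sums of 2401.2 RPKM in spleen and 2139.9 in LI. Ikzf2 alone had 1205.0 and 850.7 of this, more than the whole fall in the sum, while Foxp3 had 132.5 and 156.3. Of 12 epithelial markers 3 had peaks (55.1 and 93.8 RPKM, of which Epcam 25.3 and 47.2), with none over Krt8, Krt20, Cdh1 or Muc2. Peaks lay over 3 of 8 B and plasma cell markers (60.2 and 53.4), with none over Ms4a1, and over 2 of 10 myeloid markers (29.7 and 31.3). The 2 of 7 stromal and vessel markers with peaks summed to 944.5 and 566.6 RPKM, most of it from Pecam1 alone (910.8 and 499.6). Col1a1 went the other way at 33.6 and 67.1, and no peak lay over Col1a2, Col3a1, Pdgfra, Pdgfrb or Dcn. Of 2 CD8 markers 1 had a peak (21.1 and 9.46). Their part in the receptor differences was not tested.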

How the data were processed

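The ChIP DNA was sequenced as single-end 75 nt reads. According to the submitters' notes and the study's methods, reads were aligned to mm10 with Bowtie2, peaks were called per tissue with MACS2 against input chromatin, which came from splenic Treg cells, and merged with bedtools, and the authors deposited the mean of a bamCoverage RPKM track over each merged peak. Tool versions are not given in the sources used here. The input was not analysed here. The table is named as raw counts, but its values are not whole. In each library, the 4000 smallest products of a peak's value and its length were examined, among peaks up to 1 kb. All (100%) were whole multiples of a step (tolerance 0.05) of 1.69 in spleen and 1.31 in LI. The step was fitted to these same products, so this is not an independent check. The step was read as the RPKM that 1 read adds to a bin, and the bin was taken as 20 bp, which gave the depths.

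The LI column was scaled to the spleen total over all peaks (totals differed 1.03-fold). Peaks were assigned by midpoint to GENCODE M21 genes and summed. The log2 ratio of sums used a pseudocount of 0.5 RPKM and was given for genes whose libraries together reached 20 RPKM. The 95% interval took 1 read to cover 200 bp and covers counting error only, treating reads as independent molecules. The GC correction subtracted the median log2 ratio of 20 GC bins of peaks. All 8 receptors were named, and per related list at most the 2 highest and 2 lowest genes whose interval left out 0; some genes are not reported here by name. Members and lists were chosen with earlier results of these data known. Alternatives changed the scaling, pseudocount, filter, peak assignment, weighting and read length. Code (Python 3.11.15, numpy 2.4.6, pandas 2.3.3) was tested on simulated data.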

Additional observations from a re-analysis of the deposited data

How the results depend on the processing

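Of 72 recomputed values of single receptor genes, 62 stayed within the counting interval and 65 kept the interval on the same side of 0. These counts include ratios that the setting could not change. The read length alters only the interval, and removing peaks shared with another gene altered only Rara. The single peak of Rxrb gave the same ratio with peaks of at least 1 kb, the strongest peak and the nearest start, and Rxra kept its ratio with the nearest start. GC correction moved Rara to 0.083, Rxra to 0.37 and Ppard to 0.15 and turned Rxrb to -0.050. It left 2 receptor genes with an interval above 0 in place of 5, Nr3c1 and Rxra. The strongest peak alone also left 2, but these were Rara and Rxrb, and it gave 0.34 for Rxra. Nr3c1 was 0.69 with peaks weighted by length or assigned by overlap, 1.29 with peaks given to the nearest transcript start, 0.55 with peaks of at least 1 kb and 0.21 with its strongest peak. Rxrb also lost its call with scaling to value times length (0.16, -0.027 to 0.35). The difference between the start and end parts of Rara was -0.47, but 0.14 with peaks weighted by length and 0.31 with peaks of at least 1 kb, so no direction is read from it; for Nr3c1 it was 0.86 weighted and 0.78 with GC correction. The settings with peaks of at least 1 kb and with GC correction were chosen for these parts after seeing the data. Genes past 2-fold toward LI, 372 as reported, numbered 120 with peaks of at least 1 kb, 623 with no filter and 70 with a filter of 200 RPKM. Toward spleen, 222 as reported, they numbered 145 with a pseudocount of 5, 40 with peaks of at least 1 kb, 459 with no filter and 39 with a filter of 200 RPKM. The cause was not tested, save that the filters change how many genes enter. GC correction took the median of the other nuclear receptors from 0.51 to 0.29, and weighting by length took that of the retinoid list from 0.10 to 0.062; both stayed within the medians' intervals, which are wide (-0.023 to 0.85 and -0.76 to 0.94).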
